A study of Mus musculus with 23 samples.

Results

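The genes described here were 10 genes of the hypoxia-inducible factor (HIF) pathway: Hif1a, Vhl, Egln1, Egln3, Vegfa, Car9, Bnip3, Ndrg1, Ankrd37 and Adm. They were chosen by name, as the lines of the deposited expression table that carry these symbols, and all 10 were found among its 48897 genes. Hif1a is the transcription factor subunit, Vhl, Egln1 and Egln3 belong to the machinery that limits it, and the others are targets outside glycolysis (Egln3 is a target as well and is counted with them below). The questions were how these genes differed between control liver, pre-metastatic liver and primary tumor, and how they covaried among tumors.

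The 23 poly(A) RNA libraries came from male BALB/c mice that were aged 4 to 6 weeks when they were divided into groups. Control livers (n = 5) were from sham-operated mice without tumors, injected with medium alone. Pre-metastatic livers (n = 9) and primary tumors (n = 9) were from mice whose cecal wall was injected with CT26 cells, a mouse colon carcinoma line, and each of these 9 mice gave its liver and its tumor. Tissue was taken 3 weeks after injection. The series holds no normal colon and no cultured CT26 cells. Tumor against liver is therefore a difference between tissues, also where it is called a rise or a fall below. The tumor model is 1 cell line in 1 mouse strain, and each library is a bulk piece of tissue, so that fewer cells of a type and less RNA per cell cannot be told apart.

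HIF is a pair of proteins, an alpha subunit (HIF-1α from Hif1a, or HIF-2α from Epas1) and a stable partner (ARNT). In oxygenated cells the prolyl hydroxylases encoded by Egln1, Egln2 and Egln3 mark the alpha subunit, the VHL ubiquitin ligase recognises the mark, and the subunit is degraded, so that HIF-1α is set mostly at the protein level and its mRNA need not follow its activity. When oxygen is low the pair binds short DNA elements near its targets, which serve vessel growth (Vegfa, Adm), pH control (Car9, a cell-surface carbonic anhydrase), removal of mitochondria (Bnip3) and stress responses (Ndrg1). Egln3 is itself a target, which makes it a feedback brake, and Ankrd37, an ankyrin repeat protein, is a target whose function is less well known. RNA-seq of the genes does not measure HIF protein or oxygen.

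The sequence these targets share was looked for in the 250 bases before each RefSeq start site (assembly GRCm38.p6, the assembly named mm10). The core of the HIF element was searched as ACGTG or GCGTG on either strand, so that a palindrome CACGTG counts on each strand. A window was held for 9 of the 10 genes, all but Ndrg1. It had a match in 7 of these 9 genes, against 38.6% of all 32851 windows of that length, and at least 2 matches in 5 of 9, against 16.7% of all windows. The windows of Vhl and of the upstream start of Vegfa had none, and a second Vegfa window at an internal start had 2. A match is only a string of letters and does not show binding. The 100 bases with the most matches are given for 5 genes that are described below as moving together among tumors, in lower case with the matches in capitals, read 5′ to 3′ on the gene's strand.
Car9, chr4:43506926-43507025, plus strand: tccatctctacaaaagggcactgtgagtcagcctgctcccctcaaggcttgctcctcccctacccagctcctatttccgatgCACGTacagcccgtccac
Bnip3, chr7:138909524-138909623, minus strand: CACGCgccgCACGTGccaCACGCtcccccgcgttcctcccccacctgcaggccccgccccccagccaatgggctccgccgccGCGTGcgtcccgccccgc
Ankrd37, chr8:45999992-46000091, minus strand: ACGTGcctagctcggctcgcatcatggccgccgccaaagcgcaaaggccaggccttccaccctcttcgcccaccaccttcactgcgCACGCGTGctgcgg
Adm, chr7:110627557-110627656, plus strand: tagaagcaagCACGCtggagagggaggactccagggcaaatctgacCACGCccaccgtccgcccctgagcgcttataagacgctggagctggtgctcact
Egln1, chr8:124949281-124949380, minus strand: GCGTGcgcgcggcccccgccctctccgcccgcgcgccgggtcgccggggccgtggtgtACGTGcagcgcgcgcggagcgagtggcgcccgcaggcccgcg
The match of Car9 lay at position -18, where -1 is the base before the start site, and the fourth match of Ankrd37, outside the stretch shown, at -6. Bnip3 had 5 matches, Ankrd37 had 4, of which 3 lie in the stretch shown, Hif1a had 3, Adm and Egln1 had 2, and Egln3 had 1. The start site used for Hif1a lay 6543 bases inside the gene span given below, and that of Ankrd37 973 bases inside its span.

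Total counts per library ranged from 44587556 to 79773163 and overlapped between the groups. Expression levels below are RPKM, the count per kilobase of gene, scaled to the total counts of the library, which allows levels of different genes to be compared. Fold changes are log2 differences fitted to counts with TMM scaling, which removes a shift shared by most genes. The choice of scaling matters for tumor against liver, because the 100 most counted genes took 39.6% to 53.9% of the counts in the 14 livers and 17.97% to 20.7% in the tumors. The median difference of all genes, tumor minus pre-metastatic liver, was 0.13 with TMM and 1.30 with library totals, the scale of RPKM, and tumor minus control liver it was 0.18 and 1.26. Of the genes called, tumors were higher in 52.5% with TMM when set against pre-metastatic liver and 76.0% with library totals. A tumor level in RPKM therefore sits about 1.2 log2 units higher against liver than the fitted difference beside it. The 6 hepatocyte markers (Alb and others) summed to 32478 to 66550 RPKM in livers and 6.43 to 270.0 in tumors, and the highest tumors were those of M12 (270.0) and M10 (144.0). Intestinal epithelial markers summed to 35.3 to 116 RPKM in tumors and 1.004 to 9.72 in livers.

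Hif1a (chromosome 12, 73901324 to 73947554, mm10, plus strand) was higher in the tumor than in either liver group, and no difference between the liver groups was called. Its values in control livers C1, C4, C5, C6 and C7 were 6.45, 6.60, 6.11, 6.76 and 7.98 RPKM. Pre-metastatic livers ranged from 5.88 to 8.99 with a median of 7.14, and tumors from 21.4 to 33.9 with a median of 30.2. Every tumor lay above every liver, while the 2 liver groups overlapped. The fitted log2 difference was 0.12 ± 0.08 (SE) between pre-metastatic and control liver (adjusted p = 0.320), 0.90 ± 0.08 between tumor and pre-metastatic liver (adjusted p = 3.83e-09) and 1.03 ± 0.10 between tumor and control liver (adjusted p = 5.96e-08). Among tumors Hif1a had the lowest coefficient of variation of the 10 genes, 12.3%, followed by Vhl at 16.1%.

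Vhl (chromosome 6, 113624021 to 113631633, plus strand) encodes the substrate-recognition part of the ubiquitin ligase. Control livers held 3.88, 5.001, 5.21, 5.02 and 4.43 RPKM in the same order of mice, pre-metastatic livers 3.07 to 6.34 (median 4.87) and tumors 10.6 to 16.3 (median 13.2). All 9 tumors were above all 14 livers in RPKM, and the liver groups overlapped. On the TMM scale the tumor exceeded pre-metastatic liver by 0.31 ± 0.13 (adjusted p = 0.0280) and control liver by 0.40 ± 0.12 (adjusted p = 0.00463). These are the smallest called rises among the 10 genes, and without mouse M1 the former was 0.23 with an adjusted p of 0.0906, while DESeq2 gave an adjusted p of 0.0605 and the early clock set alone (defined below) 0.166.

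Egln1 (chromosome 8, 124908586 to 124949319, minus strand) encodes the prolyl hydroxylase PHD2, which does most of the oxygen sensing in many cells. It was lower in pre-metastatic liver and higher in the tumor than in control liver. It held 9.93, 11.0, 11.7, 9.54 and 9.64 RPKM in control livers, 6.64 to 8.35 (median 7.14) in pre-metastatic livers and 26.7 to 50.4 (median 32.9) in tumors. The 3 groups did not overlap. All 9 pre-metastatic livers lay below all 5 controls, a fall of 0.43 on the log2 scale (SE 0.07, adjusted p = 0.000367). The tumor was 1.18 ± 0.11 above pre-metastatic liver (adjusted p = 6.74e-09) and 0.77 ± 0.16 above control liver (adjusted p = 0.000284).

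Egln3 (chromosome 12, 54178981 to 54203874, minus strand), the inducible hydroxylase PHD3, was highest in control liver. Control livers held 4.01, 5.21, 6.66, 4.41 and 5.73 RPKM, pre-metastatic livers 0.683 to 6.01 (median 1.43) and tumors 1.05 to 7.82 (median 3.15). In 8 of 9 pre-metastatic livers and 8 of 9 tumors the value was below every control, and the exceptions were the liver of M5 and the tumor of M6. Without mouse M6 the tumor was lower than pre-metastatic liver by 0.89 (adjusted p = 0.0251). Pre-metastatic liver was lower than control by 1.33 ± 0.35 (adjusted p = 0.0105) and the tumor lower than control liver by 1.81 ± 0.35 (adjusted p = 0.000180). With library totals the latter was -0.73 (adjusted p = 0.0698), and tumor against pre-metastatic liver was not called, at -0.50 ± 0.38 with TMM (adjusted p = 0.225) and 0.63 with library totals. In livers of the early clock set alone the liver difference was -1.22 with an adjusted p of 0.0784.

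**Figure D1:**
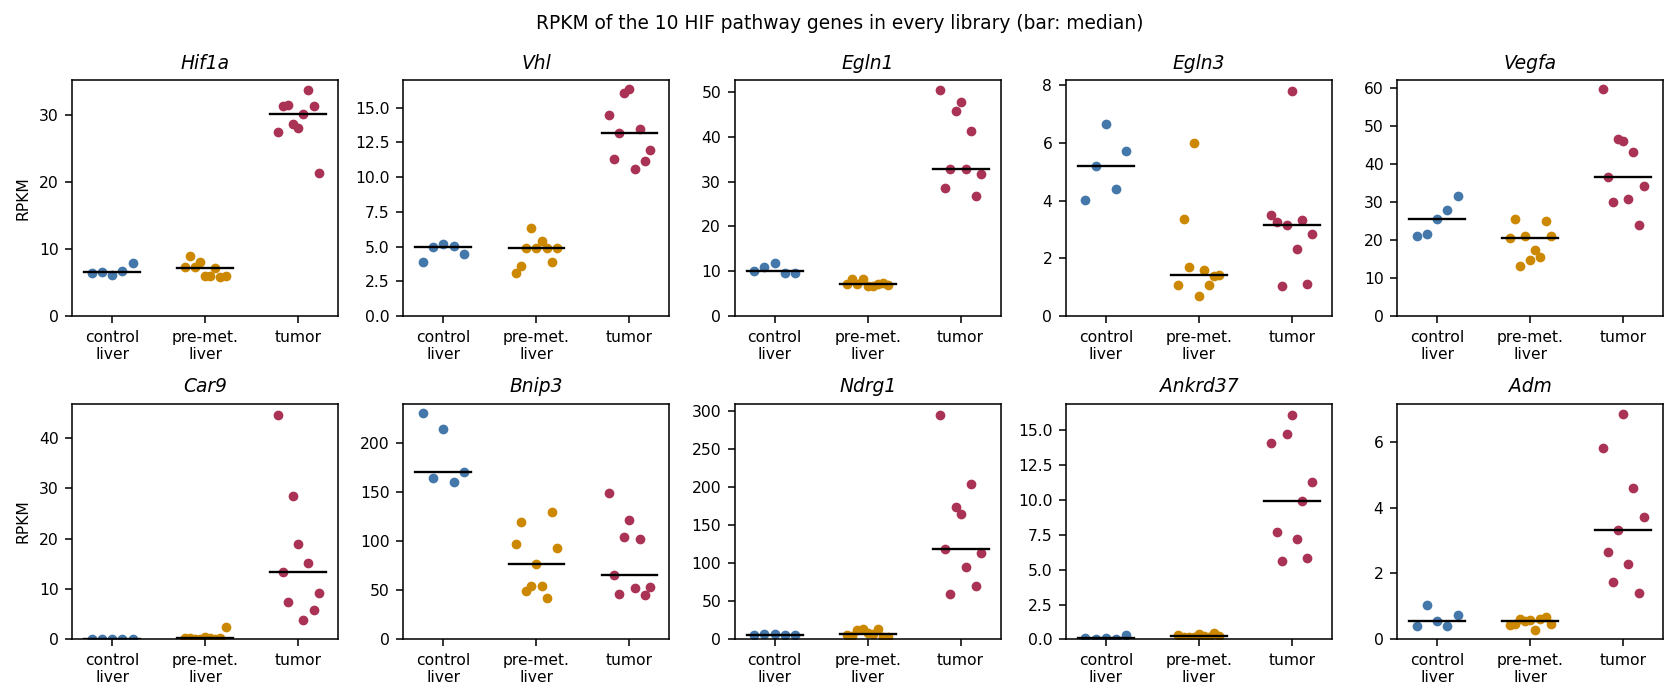
RPKM of each of the 10 genes in the 5 control livers, 9 pre-metastatic livers and 9 tumors, 1 point per library and a bar at the group median, each panel on its own linear axis from 0. On this scale, which is shifted toward tumors, tumors lie above all livers for Hif1a, Vhl, Egln1, Car9, Ndrg1, Ankrd37 and Adm. Bnip3 and Egln3 have their highest median in control liver.

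Vegfa (chromosome 17, 46016993 to 46032377, minus strand) encodes the main growth factor for vessels. Its control levels were 21.2, 21.5, 25.4, 28.0 and 31.5 RPKM, pre-metastatic livers held 13.3 to 25.6 (median 20.6), and tumors held 24.0 to 59.8 (median 36.5). Tumors reached higher RPKM than liver, with 8 of 9 above every pre-metastatic liver and 6 of 9 above every control. The direction of the tumor difference depended on the scaling: against pre-metastatic liver it was -0.17 ± 0.16 with TMM (adjusted p = 0.337) and 1.01 with library totals (adjusted p = 1.03e-05), and against control liver it was -0.46 ± 0.18 (adjusted p = 0.0265) and 0.61 (adjusted p = 0.00645). Without control C7, or without the tumors of M10 and M12, the TMM difference from control had an adjusted p of 0.0608 or 0.0604, and with upper-quartile scaling or no count filter of 0.148 or 0.0976. Pre-metastatic liver against control was -0.32 ± 0.15 (adjusted p = 0.113).

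Adm (chromosome 7, 110627669 to 110629819, plus strand), the precursor of the vasodilator peptide adrenomedullin, was low in liver and higher in the tumor. It held 0.408, 1.04, 0.555, 0.411 and 0.725 RPKM in controls, 0.281 to 0.682 (median 0.561) in pre-metastatic livers and 1.42 to 6.82 (median 3.32) in tumors. Liver values rested on 28 to 82 counts per library. The tumor was above pre-metastatic liver by 1.58 ± 0.28 (adjusted p = 3.16e-05) and above control liver by 1.44 ± 0.39 (adjusted p = 0.00289), with no overlap, and the liver groups differed by -0.16 ± 0.26 (adjusted p = 0.675).

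Car9 (chromosome 4, 43507026 to 43513729, plus strand), the carbonic anhydrase often used as a tissue mark of hypoxia, separated all 3 groups. Control livers held 2, 5, 9, 0 and 1 counts, or 0.0151, 0.0401, 0.0686, 0 and 0.00832 RPKM. Pre-metastatic livers held 14 to 348 counts, or 0.132 to 2.47 RPKM (median 0.257), and tumors held 465 to 6122 counts, or 3.89 to 44.5 RPKM (median 13.4). Pre-metastatic liver exceeded control by 4.32 ± 1.01 (adjusted p = 0.00498), a size that rests on 17 counts in the controls together. The liver of M12 stood apart at 2.47 RPKM, where the others were at or under 0.373, and without it the difference was 3.22 (adjusted p = 0.00173). In that liver the 6 intestinal epithelial markers summed to 9.72 RPKM (1.004 to 4.55 in the other pre-metastatic livers, 3.26 to 8.28 in controls), and 5 of the 6, all but Krt20, had their highest value among the 9. The 4 smooth muscle markers summed to 8.33 (1.71 to 6.94 in the others, 1.47 to 7.53 in controls), with Actg2 and Cnn1 at their highest there and Des and Myh11 not. Their part in the Car9 value was not tested. Tumors exceeded pre-metastatic liver by 3.77 ± 0.65 (adjusted p = 2.49e-05) and control liver by 8.12 ± 0.86 (adjusted p = 2.42e-07). Without mice M10 and M12 the former was 5.02.

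Bnip3 (chromosome 7, 138890836 to 138909506, minus strand), a receptor that directs mitochondria to degradation, had its highest level in control liver. Values there were 231, 164, 215, 161 and 171 RPKM. Pre-metastatic livers held 42.5 to 130.0 RPKM (median 77.3) and tumors 44.9 to 149.5 (median 66.1). All 18 libraries of tumor-bearing mice lay below all 5 controls. Bnip3 was lower than in control liver by 1.16 ± 0.26 in pre-metastatic liver (adjusted p = 0.00337) and by 2.28 ± 0.28 in the tumor (adjusted p = 1.42e-06). With library totals the latter was 1.19 (adjusted p = 0.000691). Tumor against pre-metastatic liver was -1.15 ± 0.28 with TMM (adjusted p = 0.000898) but 0.05 with library totals (adjusted p = 0.874), and the tumor RPKM was above that of its own liver in 4 of 9 mice. Within the early clock set the TMM difference was -0.60 (adjusted p = 0.0732).

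Ndrg1 (chromosome 15, 66929318 to 66969641, minus strand), a stress-induced gene often used as a hypoxia marker, had the highest tumor RPKM of the targets. It held 5.25, 7.05, 6.72, 5.80 and 5.52 RPKM in controls, 2.67 to 13.9 (median 7.09) in pre-metastatic livers and 60.1 to 296 (median 118) in tumors. Every tumor exceeded every liver, by a fitted 3.05 ± 0.37 over pre-metastatic (adjusted p = 2.45e-07) and 3.49 ± 0.37 over control liver (adjusted p = 2.65e-07). The pre-metastatic livers lay on either side of the controls, 5 above and 3 below all of them, and the group difference was 0.42 ± 0.35 (adjusted p = 0.388).

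Ankrd37 (chromosome 8, 45996902 to 46000823, minus strand) was low in liver and higher in the tumor. Control livers held 9, 6, 9, 4 and 34 counts, or 0.0795, 0.0562, 0.07998, 0.0418 and 0.330 RPKM, pre-metastatic livers 0.144 to 0.484 RPKM (median 0.234) and tumors 5.59 to 16.1 (median 9.92). Tumors exceeded pre-metastatic liver by 4.13 ± 0.30 (adjusted p = 1.15e-10) and control liver by 5.38 ± 0.50 (adjusted p = 4.12e-08), without overlap. Pre-metastatic liver against control was 1.22 ± 0.50 (adjusted p = 0.0728), while DESeq2 gave 1.23 (adjusted p = 0.0409) and a fit of all 23 libraries also 1.23 (adjusted p = 0.0400). Without control C7, the control with 34 counts, it was 2.03 (adjusted p = 0.00421).

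Some of these genes share sequence with a neighbour in the table. An antisense gene within Bnip3 reached 105 RPKM in liver, an antisense gene within Ndrg1 reached 152 RPKM in tumor, the end of Ufsp2 (up to 21.4 RPKM) overlaps Ankrd37, and Arhgef39 and Tpm2 overlap the ends of Car9. The strand setting of the counting is not given in the sources used here, so that reads of these genes and of their antisense neighbours cannot be told apart.

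By count, 4 of the 10 genes were called between pre-metastatic and control liver, with 1 higher (Car9) and 3 lower (Egln1, Egln3, Bnip3), where 17.7% of all 16987 genes tested were called higher and 13.3% lower. Tumor against pre-metastatic liver gave 8 calls, 7 higher and 1 lower (Bnip3), beside 43.8% higher and 39.5% lower among 19749 genes. Tumor against control liver gave 10 calls, 7 higher and 3 lower (Egln3, Vegfa, Bnip3), beside 44.2% and 38.1% among 19320 genes. The median log2 difference of the 10 was -0.05, 1.04 and 0.90 in the 3 comparisons, and that of all genes 0.01, 0.13 and 0.18. The 2 tumor comparisons share their tumors and are not independent of each other. Groups without overlap in RPKM were common among the genes listed here. Tumors and pre-metastatic livers did not overlap for 7 of the 10 genes, nor for 11 of 14 other HIF subunits and regulators tested. The share over all genes was not counted, and RPKM is shifted toward tumors. Whether a lack of overlap in RPKM sets these genes apart therefore cannot be told.

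**Figure D2:**
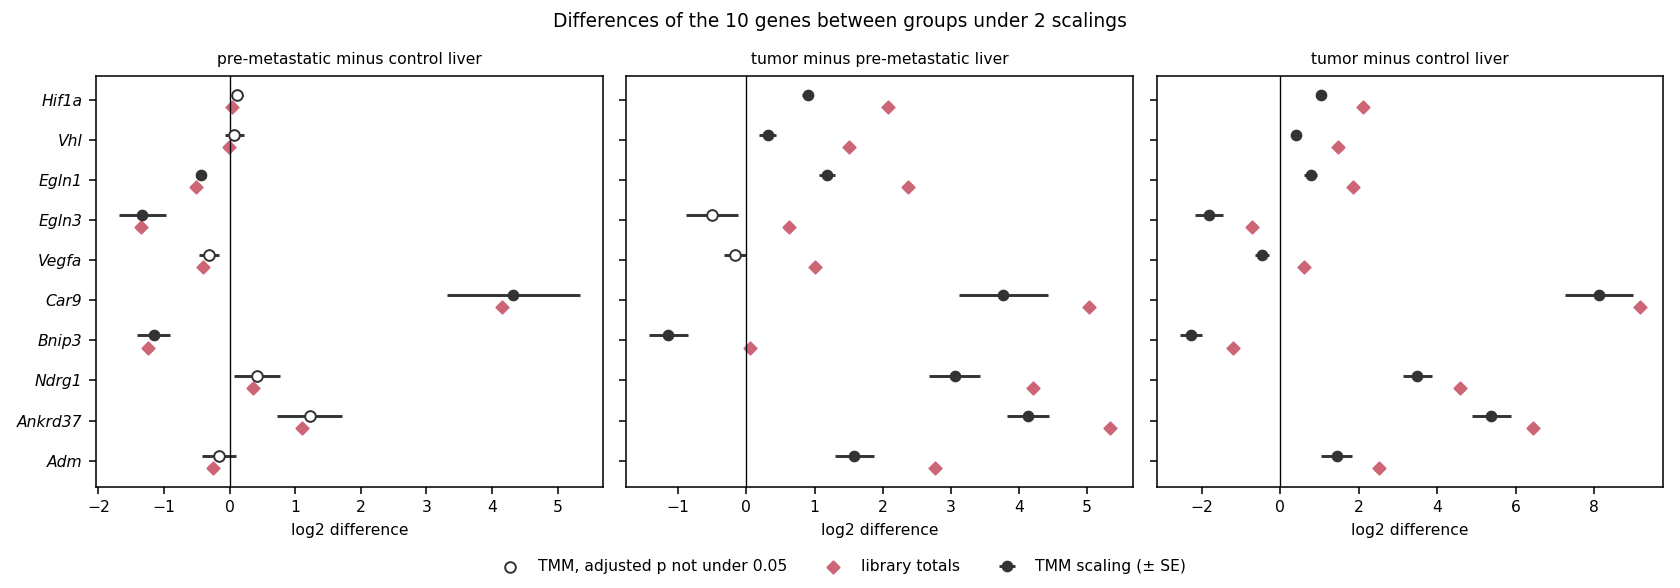
Log2 difference of each gene in the 3 comparisons, with TMM scaling (circles with SE bars, open where the adjusted p is not under 0.05) and with library totals (diamonds). In the tumor comparisons every diamond lies to the right of its circle, and Vegfa crosses 0 in each of them while Egln3 and Bnip3 cross it only against pre-metastatic liver.

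The rest of the pathway was read from 4 lists. Of 15 other HIF subunits and regulators, 14 could be tested in each comparison. Between pre-metastatic and control liver 2 were lower, Tceb1 (elongin C, the adaptor of the VHL ligase) by 0.32 (adjusted p = 0.00980) and Rbx1 (its RING subunit) by 0.20 (adjusted p = 0.0303), and 0 were higher, with 12 not called. In the tumor against pre-metastatic liver 5 were higher and 6 lower. Epas1, which encodes HIF-2α, averaged 32.0 RPKM in pre-metastatic liver and 3.18 in the tumor, a log2 difference of -4.53 ± 0.24 (adjusted p = 5.68e-13), and it differed by -4.12 from control liver. Hif1a and Epas1 thus stood in opposite order in the 2 tissues: Epas1 exceeded Hif1a in mean RPKM in liver, and Hif1a exceeded Epas1 in the tumor. Egln2, the hydroxylase PHD1, was lower by 0.91 with TMM (adjusted p = 5.35e-10) but higher by 0.27 with library totals (adjusted p = 0.00451), while Arnt2 (2.66) and Cited2, which competes with HIF for its coactivator (1.40), were the largest rises. Arnt2 had 0 to 8 counts per control liver and 1 to 16 per pre-metastatic liver. With library totals 12 of the 14 were higher and 1 lower. Against control liver 3 were higher and 4 lower, with Arnt2 (3.78), Cited2 (0.89), Epas1 and Egln2 again at the ends, the last at -1.05 with TMM and 0.04 with library totals. With library totals 11 of the 14 were higher and 1 lower in this comparison.

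Of 27 other targets outside glycolysis, 24 were tested in livers and 26 in the tumor comparisons. In pre-metastatic against control liver 3 were higher and 6 lower. The largest rises were Bhlhe40, a transcriptional repressor of the clock and of metabolism (1.22 ± 0.35, adjusted p = 0.0162), and Ak4, a mitochondrial adenylate kinase (0.85 ± 0.30, adjusted p = 0.0431), and the largest falls Vldlr, a lipoprotein receptor (-2.08 ± 0.40, adjusted p = 0.00131), and Insig2, which restrains sterol synthesis (-1.14 ± 0.38, adjusted p = 0.0339). With library totals 1 was higher and 8 lower. In the tumor 19 were higher than in pre-metastatic liver and 3 lower, with Car12 (6.35) and Vldlr (5.02) rising most and Ak4 (-5.85) and Insig2 (-3.33) falling most. Against control liver 17 were higher and 3 lower. Car12, another surface carbonic anhydrase, had 0 counts in all 5 controls and 7732 in the 9 tumors, at least 1409-fold higher when 3 counts over the control group are taken as the limit of detection and library totals as the scale. Plod2, which modifies collagen, followed at 5.43. The median of the list was 1.86 against pre-metastatic liver and 1.97 against control liver, also with Car12 at its bound.

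The 9 glycolytic targets divided in the liver, 3 higher and 2 lower in pre-metastatic than in control liver. The lactate exporter Slc16a3 (1.80) and the hexokinase Hk2 (1.13) led the rises at low levels, means of 0.328 and 0.501 RPKM in pre-metastatic liver, and Aldoa (-0.96) and the glucose transporter Slc2a1 (-0.77) the falls. In the tumor 6 were higher than in pre-metastatic liver and 3 lower, with Slc16a3 (4.96) and Hk2 (4.38) again the largest rises. Pfkfb3 (-1.23) and Pdk1 (-0.48), regulators of glycolytic flux and of pyruvate entry into mitochondria, were lower with TMM and at 0.01 and 0.71 with library totals. Against control liver 6 were higher and 1 lower, Ldha at -0.60 with TMM and 0.47 with library totals.

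Among 12 partners of Vegfa and Adm, 4 of 11 tested were higher in pre-metastatic than in control liver and 0 lower. Pgf, a second ligand of the VEGF receptor Flt1, rose from a mean of 0.0197 to 0.0986 RPKM (2.37 ± 0.57, adjusted p = 0.00591), and the co-receptor Nrp1 from 12.5 to 30.7 (1.37 ± 0.21, adjusted p = 0.000243). The Pgf difference rests on 0 to 5 counts per control liver and 5 to 19 per pre-metastatic liver. In the tumor 4 were higher than in pre-metastatic liver and 7 lower. Pgf (4.04) and the co-receptor Nrp2 (3.90) led the rises, and Flt4, the receptor of lymphatic and sinusoidal endothelium (-3.82), and Ramp1, a subunit of the calcitonin family receptors (-3.42), the falls. Against control liver 5 were higher and 7 lower, with the same 4 genes at the ends. With library totals the counts were 5 higher and 5 lower against pre-metastatic liver, and 5 and 4 against control liver. Endothelial markers summed to 9.60 to 32.2 RPKM in livers and 22.5 to 47.3 in tumors, but they did not move alike. Stab2 held 3.33 to 11.9 RPKM in livers and 0.0141 to 0.113 in tumors, and Tek was lower in tumors with overlap. Pecam1 held 1.88 to 7.05 in livers and 10.3 to 23.1 in tumors. Cdh5 and Emcn were also higher in tumors, Cdh5 with overlap.

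Markers of other cells moved with the tumor comparison too. Tumors and livers did not overlap in the summed RPKM of proliferation markers (222 to 342 in tumors, 0.283 to 8.49 in livers), fibroblast markers (495 to 801, and 40.1 to 137) and immediate early genes, which respond to tissue handling (175 to 269, and 35.4 to 74.4). Between the liver groups red cell markers (215 to 484 in control, 556 to 1197 in pre-metastatic liver) and proliferation markers (0.283 to 0.683, and 1.17 to 8.49) did not overlap either. Their part in the differences was not tested.

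The members were next compared with each other across the 9 tumors. The 7 targets varied together from tumor to tumor, by the exact test of each pair though not after adjustment over all genes. All 7 had their 3 lowest values in the tumors of M4, M7 and M10, and 4 of them (Vegfa, Car9, Bnip3 and Ndrg1) had their 4 highest in those of M1, M5, M6 and M8. The tumor of M1 was among the highest 3 for each target, and the tumor of M10 among the lowest 2. Across the tumors Car9 spanned 11.4-fold, Egln3 7.46-fold, Ndrg1 4.92-fold, Adm 4.81-fold, Bnip3 3.33-fold, Ankrd37 2.88-fold and Vegfa 2.49-fold. On log2(RPKM + 1) the SD of each target was larger than that of at least 92.1% of the genes tested in tumors, while Hif1a lay at 57.6%. The added 1 lowers the SD of genes at low RPKM, so that this rank depends partly on level. Vegfc, at a mean of 0.395 RPKM, lay at 38.8% with a coefficient of variation of 34.6%. Vegfa lay at 92.1% with one of 28.1%.

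All 21 pairs of targets had a positive Spearman correlation with an exact p under 0.05, with rho from 0.77 to 0.98 and a median of 0.87. Pairs of a member and any of the 17778 tested genes passed that threshold with a positive rho in 3.21% of 177770 cases and with a negative rho in 3.18%. The 21 pairs share their genes and the same 9 tumors, so that they are not independent of each other. The closest pair was Vegfa and Bnip3 (rho = 0.98, exact permutation p = 4.96e-05, r = 0.96, exact permutation p = 8.27e-06), whose r without the 2 tumors farthest from the median of Vegfa was 0.98. Vegfa and Car9 followed (rho = 0.95, exact permutation p = 0.000353, r = 0.93), then Vegfa and Ndrg1 and Car9 and Bnip3 (rho = 0.93 in each). The weakest pair was Ndrg1 and Ankrd37 (rho = 0.77, exact permutation p = 0.0214, r = 0.84, r without the 2 farthest tumors 0.77). After adjustment over all 177770 pairs 0 passed, and with 9 tumors the smallest p possible is 5.51e-06.

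Vhl and Egln1, which limit HIF, correlated positively with the targets. Their 14 pairs with targets had rho from 0.65 to 0.87, of which 10 had an exact p under 0.05, and with each other they had rho = 0.85 (exact permutation p = 0.00607, r = 0.88). For Vhl the closest target was Car9 (rho = 0.87, exact permutation p = 0.00451), and for Egln1 it was Bnip3 (rho = 0.83, exact permutation p = 0.00827). Among the 36 pairs of the 9 genes other than Hif1a all rho were positive, at 0.65 or above, and 32 had an exact p under 0.05. Without the 2 tumors farthest from the median of the first gene named, r of the 36 pairs ranged from 0.38 (Vhl and Egln3) to 0.98.

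Hif1a had correlations of the opposite sign. Its 9 correlations with the others were all negative, from -0.28 (Vhl) to -0.67 (Ankrd37, exact permutation p = 0.0589), and 0 of 9 had an exact p under 0.05. Pearson's r was nearer 0, from -0.02 to -0.46. The tumor of M12 had the lowest Hif1a (21.4 RPKM, the next 27.5) with middle values of the targets, and M8, the highest for Hif1a (33.9 RPKM), was high for the targets. Without these 2 tumors, which are the farthest from the Hif1a median, r ranged from -0.73 (Egln3) to -0.95 (Egln1). Without the 2 tumors farthest from the median of the other gene, r ranged from -0.34 (Ankrd37) to 0.20 (Bnip3). Both the size and the sign of r thus depend on which tumors are left out. In the early clock set alone rho with Ndrg1 was 0.10. With ranks centered within the clock sets the Ankrd37 pair had an exact p of 0.0420, and without M8 2 of the 9 pairs had a p under 0.05.

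**Figure D3:**
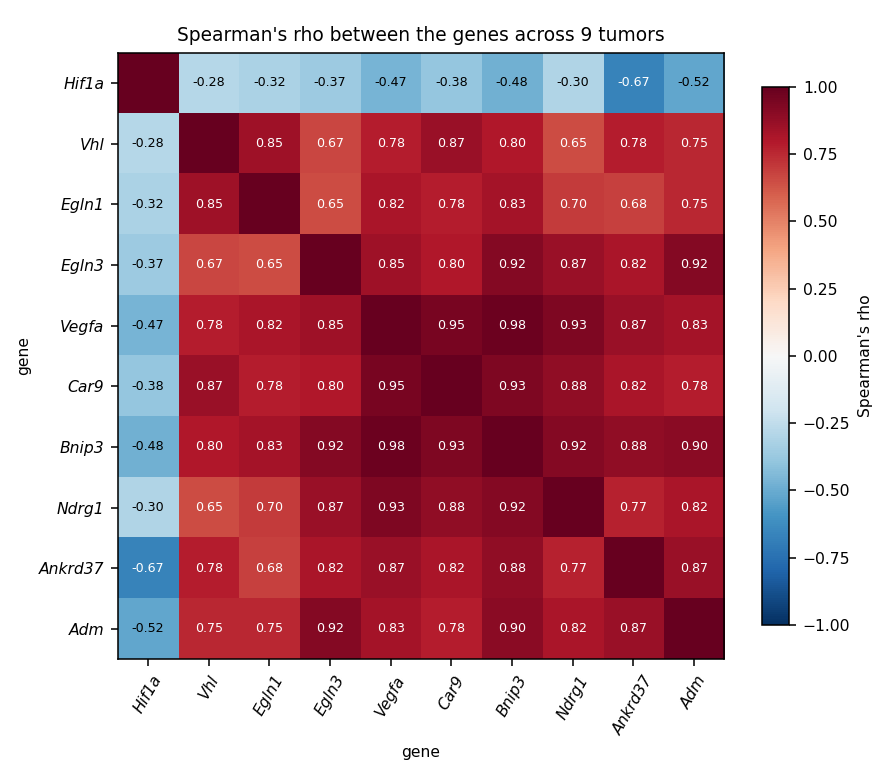
Spearman's rho between each pair of the 10 genes over the 9 tumors, colored from -1 to 1. The 36 pairs without Hif1a are all at 0.65 or above and the 9 pairs with Hif1a all at -0.28 or below.

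**Figure D4:**
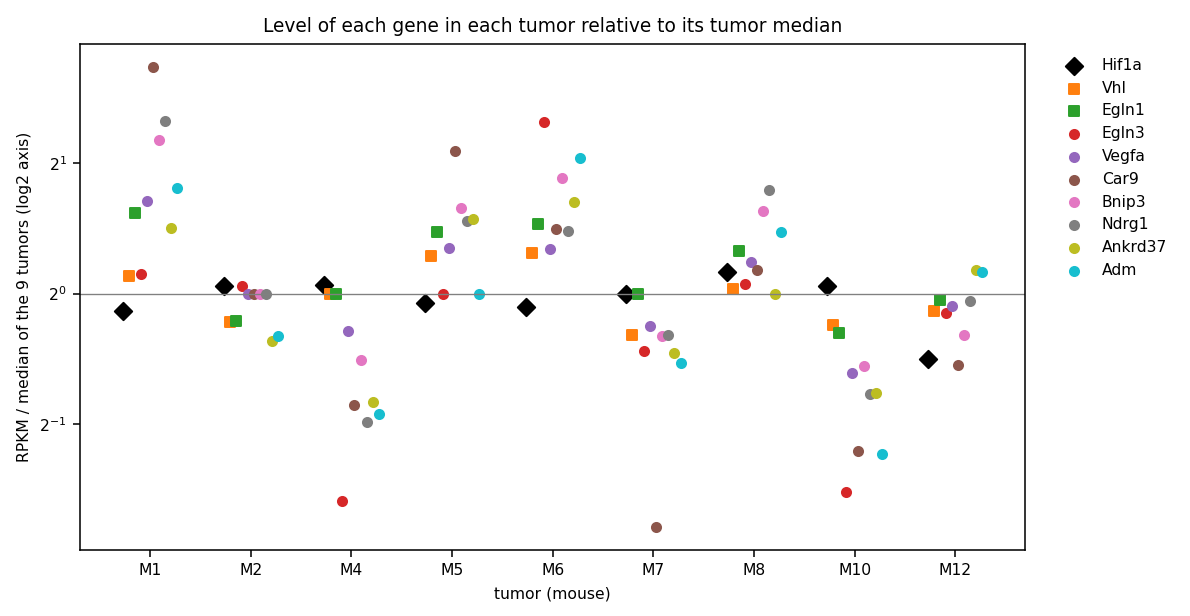
RPKM of each gene in each tumor divided by its median over the 9 tumors, on a log2 axis. Circles are targets, squares Vhl and Egln1, and the black diamond Hif1a. Targets lie mostly above 1 in M1, M5, M6 and M8 and below it in M4, M7 and M10, while Hif1a stays near 1 except in M12.

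The tumors were also taken within sets of mice. The livers divide by the level of clock genes (Dbp, Per3 and Ciart against Arntl, Npas2 and Clock) into an early set of 4 control and 5 tumor-bearing mice (M4 to M8) and a late set of 1 control (C7) and the other 4 tumor-bearing mice (M1, M2, M10, M12). The labels give no hour of collection. In the 5 early tumors rho of the 36 pairs without Hif1a was 0.50 to 1, and in the 4 late tumors 0.80 to 1. Ranks centered within the sets gave 34 of 36 pairs with an exact p under 0.05. Without the tumors of M10 and M12, which hold the most hepatocyte RNA, all 36 rho stayed positive (0.57 or above).

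Across the same tumors the summed level of marker lists was set against each member, 110 relations in all. Immediate early genes had rho of 0.68 to 0.90 with the 9 genes other than Hif1a (exact p under 0.05 for 8 of 9), red cell markers 0.60 to 0.90 (7 of 9) and neutrophil markers 0.42 to 0.90 (5 of 9). The lowest adjusted p over the 110 relations was 0.0558 for each of these lists. In the tumor of M1 the neutrophil markers summed to 251 RPKM and the red cell markers to 327, the highest of the 9, and in that of M4 to 9.54 and 42.7, the lowest. Hif1a had rho = -0.82 with red cell markers (exact permutation p = 0.0108) and 0.87 with smooth muscle markers (exact permutation p = 0.00451). The latter holds for the sum, whose markers did not move alike. In the tumor of M4, the highest sum, Des gave 30.5 of 31.4 RPKM. Actg2 (0.449 RPKM) and Cnn1 (0.0766 RPKM) were at their lowest in that tumor. Hepatocyte, endothelial, macrophage, T cell, fibroblast and intestinal epithelial markers had 0 of 9 relations with an exact p under 0.05 with the genes other than Hif1a, and smooth muscle and proliferation markers 1 of 9 each, both negative. The part of these cells or of handling in the covariation was not tested.

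The 10 genes outside the 10 members whose tumor levels were most like the 7 targets, by mean rho over 15593 genes with at least 10 counts in every tumor, were Gm31888 (0.93), Phf3 (0.92), Gm38850 (0.92), Gm32404 (0.92), Fam162a (0.91), Hilpda (0.91), Higd1a (0.90), Appl2 (0.90), Ccng2 (0.90) and Maff (0.90). Fam162a, Hilpda, Higd1a and Ccng2 belong to the list of other targets outside glycolysis. Gm31888 and Gm38850 are predicted genes at 0.416 RPKM or less in every tumor, and Phf3 moved little, from 12.6 to 15.8 RPKM. On the same measure Bnip3 had a mean rho of 0.92 to the other targets, Vegfa 0.90, and Ankrd37, the lowest of the 7, 0.84. The 26 tested other targets had a median mean rho of 0.77 (23 positive, lowest Lox at -0.57), the 9 glycolytic targets 0.73 (all positive, highest Slc2a1 at 0.88), the 14 subunits and regulators 0.02, and the 12 partners -0.11, beside -0.02 for all ranked genes. This ranking is a description over 9 tumors.

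In pre-metastatic livers of the same 9 mice the correlations had mixed signs. Of the 45 pairs 20 had a positive rho, and 6 had an exact p under 0.05, of which 2 were positive and 4 negative. Pairs of a member and a gene passed that threshold with a positive rho in 6.23% and with a negative rho in 3.63% of 162050 cases. Bnip3 and Ndrg1, at rho = 0.92 in tumors, had rho = -0.88 in livers (exact permutation p = 0.00308), and with ranks centered within the clock sets -0.53 (exact permutation p = 0.210). Ankrd37 was negatively related to Egln3 (rho = -0.72, exact permutation p = 0.0369) to Hif1a (rho = -0.70, exact permutation p = 0.0433) and to Ndrg1 (rho = -0.73, exact permutation p = 0.0311). The 2 positive pairs had the sign they had in tumors, Vegfa and Bnip3 (rho = 0.75, exact permutation p = 0.0255) and Bnip3 and Ankrd37 (rho = 0.72, exact permutation p = 0.0369). The difference between tumor and liver correlations was not tested.

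Of the 10 genes 2, Bnip3 and Ndrg1, did not overlap between the clock sets of pre-metastatic livers. Among 16206 genes 2.53% were higher and 2.77% lower in the late set without overlap. Bnip3 was 42.5 to 77.3 RPKM in the 5 early and 93.4 to 130.0 in the 4 late pre-metastatic livers, Ndrg1 7.09 to 13.9 and 2.67 to 5.41, in the opposite direction, while Vegfa overlapped at 13.3 to 21.1 and 20.6 to 25.6. In tumors the sets overlapped for all 3. With clock set as a term, Vegfa was lower in pre-metastatic than in control liver by 0.45 (adjusted p = 0.00378) and Ankrd37 higher by 1.19 (adjusted p = 0.0480). Among early livers alone Vegfa was lower by 0.49 (adjusted p = 0.0150), Ndrg1 higher by 0.87 (adjusted p = 0.00303) and Ankrd37 higher by 1.81 (adjusted p = 0.0213). Whether tumor minus liver differed between the sets was tested with an interaction term in edgeR. This fit had no term for the mouse, so that the liver and tumor of a mouse were treated as independent libraries. Ndrg1 differed by 1.68 ± 0.54 (late minus early, adjusted p = 0.187) and Bnip3 by -1.04 ± 0.48 (adjusted p = 0.428), and 0 of 10 passed, where 1.16% of 19749 genes did.

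**Figure D5:**
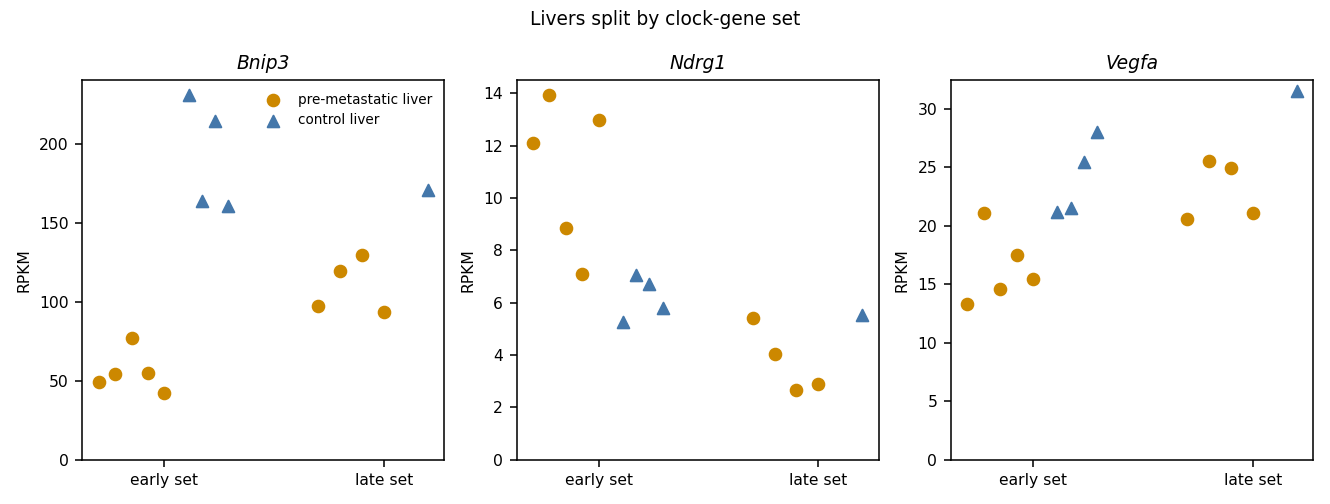
RPKM of Bnip3, Ndrg1 and Vegfa in each liver, split by the clock-gene set, on linear axes from 0. Circles are pre-metastatic and triangles control livers. Bnip3 is higher and Ndrg1 lower in late than in early pre-metastatic livers, and Bnip3 stays below the controls in each set.

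The level of a gene in the tumor was also set against its level in the liver of the same mouse. For the 10 genes rho ranged from -0.55 (Egln3, exact permutation p = 0.133) to 0.35 (Ndrg1, exact permutation p = 0.359), and 0 of 10 had an exact p under 0.05. Among 14497 genes tested 3.61% passed with a positive rho and 1.58% with a negative rho.

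The study asks whether tumor metabolism goes with myeloid-derived suppressor cells (MDSC), immature myeloid cells that restrain T cells, in the liver of the same mouse. The MDSC score of the liver was an ssGSEA score over 36 genes, none of them among the 10. It correlated with the tumor level of all 9 genes other than Hif1a with positive rho, and 5 of 10 genes had an exact p under 0.05, where 2.28% of 17778 tumor genes passed with a positive rho and 2.53% with a negative rho. Egln1 had rho = 0.90 (exact permutation p = 0.00203, r = 0.83) and Vhl rho = 0.88 (exact permutation p = 0.00308, r = 0.79), followed by the targets Car9 (rho = 0.82, exact permutation p = 0.0108), Vegfa (0.75, exact permutation p = 0.0255) and Bnip3 (0.73, exact permutation p = 0.0311). Hif1a had rho = -0.32 (exact permutation p = 0.410).

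After adjustment over all genes 0 passed, and the lowest adjusted p among the 10 was 0.801 (Egln1). These 9 genes covary among tumors, so that their relations to the score are not independent of each other. Without the 2 tumors farthest from each gene's median, r was 0.77 for Vhl, 0.72 for Egln1, 0.57 for Vegfa, 0.45 for Bnip3 and 0.37 for Car9. Leaving out the mouse M1, M5, M6 or M8 left 3 of 10 genes with an exact p under 0.05 in each case.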

How the data were processed

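RNA was sequenced from 23 libraries of 5 control and 9 tumor-bearing mice. Each library is 1 tissue piece of 1 mouse. The authors deposited raw counts per gene and RPKM values in 1 table (genome build mm10). The submitters' processing notes name HISAT2, HISAT and HTSeq 0.6.0, and the strand setting is not given in the sources used here. All 46 columns were matched to samples by name, 0 were left without a sample, and RPKM recomputed from the counts differed by at most 1.75e-06 of its value. No pair of libraries looked like copies.

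Counts were tested with edgeR 4.0.16 (quasi-likelihood test, TMM, a minimum of 10 counts in 5 or more of the libraries compared, Benjamini-Hochberg adjusted p under 0.05 over all genes tested) in R 4.3.3. Alternatives were DESeq2 1.42.0, other scalings, no filter, an exact Wilcoxon rank-sum test, the mouse as a block, clock sets and leaving out replicates. The steps were tested on simulated data. The labels tie each tumor to the liver of its mouse, and deviations of a tumor from its group mean correlated with those of its own liver at -0.03 to 0.18. The own liver gave the highest r for 4 of 9 mice, and r was over 0.1 for 3. The pairing thus rests on the labels.

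Correlations over the 9 tumors used Spearman's rho and Pearson's r of log2(RPKM + 1), with two-sided exact permutation tests over 362880 pairings (scipy 1.17.1). In the clock sets ranks were centered within a set and permuted within it. The liver score used ssGSEA with exponent 0.25.

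The 10 members and all lists were chosen with earlier results of these data known. The pathway genes named were the 2 largest rises and 2 largest falls among calls in each list. The covariation in liver, the tumor and liver correlation, the overlap and the test between clock sets and the runs without M10 and M12 were added after seeing the data. The lists hold 3 genes under older symbols (Tceb1 is Eloc), and 2 symbols on several lines were summed.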

Additional observations from a re-analysis of the deposited data

Results flagged for a closer look

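In 30 groups (10 genes in 3 groups each) the highest or lowest library was compared with its nearest neighbor, and 4 stood apart from the rest. Chance alone gives about 1 group in 20. The liver of M5 held 6.01 RPKM of Egln3, where the next pre-metastatic liver held 3.37. The tumor of M6 held 7.82 RPKM of Egln3, where the next tumor held 3.50. The liver of M12 held 2.47 RPKM of Car9 (348 counts), where the next held 0.373. The control liver of C7, the 1 control of the late clock set, held 0.330 RPKM of Ankrd37 (34 counts), where the next control held 0.07998.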

How the results depend on the processing

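The counts of called genes stayed within 1.5 times the values reported under every alternative run, except for the tumor genes related to the liver MDSC score. That count was 5 of 10, ranged from 3 to 7 when 1 mouse was left out and was 3 without M1, M5, M6 or M8. Leaving out 1 replicate gave 4 to 5 calls between the livers, 7 to 9 for tumor against pre-metastatic liver, 9 to 10 for tumor against control liver and 27 to 35 of 45 pairs of genes across tumors. With the mouse as a replicate block 8 genes were called between tumor and pre-metastatic liver, as without it. Directions that reversed did so mostly with the scaling. With library totals and with the Wilcoxon test on RPKM, the values were, for pre-metastatic against control liver, -0.017 and -0.029 for Vhl. For tumor against pre-metastatic liver they were 0.63 and 0.46 for Egln3, 1.01 and 0.96 for Vegfa, 0.046 and 0.018 for Bnip3, 0.27 and 0.26 for Egln2, 0.71 and 0.62 for Pdk1, and 0.0052 and 0.12 for Pfkfb3. For tumor against control liver they were 0.61 and 0.56 for Vegfa, 0.035 and 0.027 for Egln2, and 0.47 and 0.51 for Ldha. Vegfa against pre-metastatic liver was also 0.011 with upper-quartile scaling, 0.064 in early mice and 0.027 without M10 and M12. Adm between the livers ranged from -0.28 to 0.090 with 1 replicate left out, the latter without control C4. The causes other than scaling were not tested. Of the genes called between the livers, 57.1% were higher with TMM, 46.0% with library totals and 42.0% with the Wilcoxon test. Liver levels of Car9 and Ankrd37, and of Pgf and Arnt2 among the list genes, rest on few counts, and 9 tumors limit the correlations.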
